A study of Danio rerio with 42 samples.

Results

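Adult zebrafish livers that had met both challenges of the study, 1% ethanol (EtOH) as embryos and a high-fat/high-cholesterol (HFHC) diet as adults, were set against livers that had met neither. The comparison held 10 livers, 5 labelled 1% EtOH with HFHC diet and 5 labelled 0% EtOH with normal diet (ND), chosen by those labels out of 30 adult livers and 42 samples in the series. All fish were wild-type AB strain and came from sibling-matched cohorts. The 1% EtOH HFHC fish were kept in fish water with 1% EtOH starting 12 hours after fertilization (hpf) and ending on day 5 (dpf), were raised without EtOH after that, and from 65 dpf received 0.063 g of pellets and 0.02 g of whole egg powder per fish per day for 8 weeks. The 0% EtOH ND fish saw 0% EtOH over the same window and received 0.013 g of the same pellets per fish per day for the same 8 weeks, so the HFHC groups were given more pellets as well as egg powder. Both groups were housed at 12 fish per tank in these weeks. Each library came from the whole dissected liver of 1 fish, and the labels give no sex, whereas the text of the study refers to males where it speaks of the liver changes under HFHC diet. The other groups used below were 0% EtOH HFHC livers and 1% EtOH ND livers, 5 of each, which had met 1 challenge only. The question was which hepatic transcripts differ in fish that met both, and, with the other groups, whether the difference departs from that seen with each challenge alone.

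The liver takes up dietary fat and cholesterol, stores them as triglyceride and cholesteryl ester in lipid droplets, burns fatty acids in mitochondria and peroxisomes, and sends lipid out in lipoproteins. Its hepatocytes make most plasma proteins, so they hold a large endoplasmic reticulum (ER) with chaperones that are induced when folding is strained. In the zebrafish, pancreatic tissue lies along the gut and beside the liver lobes, and digestive enzyme transcripts are among the most abundant of the exocrine pancreas.

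Total counts per library ran between 9757169 and 11720953 in 1% EtOH HFHC livers (n = 5), between 8131371 and 10899894 in 0% EtOH ND livers (n = 5), and between 9339786 and 12146437 in the 10 livers of the other groups. Values below are CPM, a gene's count scaled to a common library size after edgeR's trimmed mean normalization, in replicate order. The log2 fold change is 1% EtOH HFHC over 0% EtOH ND unless another contrast is named. Libraries were not equally alike. The first principal component of the 10 livers took 42.7% of the variance, with 0% EtOH ND replicates 1, 2 and 3 at 46, 61.3 and 113.7 and the other 7 livers between -42.4 and -12.7. These 3 were not alike on the second component (17.5%), where replicate 1 lay at -92.9 and replicates 2 and 3 at 24.6 and 34.

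Hepatocyte markers identified every library as liver. The summed CPM of 10 of 10 hepatocyte genes (among them fabp10a, apoa1b and tfa) was 167500 to 209200 in 1% EtOH HFHC livers, and 289300, 108100, 45350, 180300 and 176400 in 0% EtOH ND livers, lowest in replicate 3. Transcripts of neighbouring organs were found at unequal levels, chiefly in 0% EtOH ND livers. Of 12 intestinal epithelium markers 11 were found in the tables, and their sum was 31.3, 19.97, 27.4, 48.05 and 14.7 CPM in 1% EtOH HFHC livers, against 1998, 2054, 7936, 20.9 and 47 CPM in 0% EtOH ND livers. The same 3 control livers that stood apart on the first component therefore held the intestinal transcripts, whereas replicates 4 and 5 were within the range of the exposed livers. Of 8 islet markers 7 were found, with sums of 7.69, 0.528, 6.35, 0.763 and 3.97 CPM in 1% EtOH HFHC livers and 837, 84.1, 260.7, 2.05 and 653.5 CPM in 0% EtOH ND livers. Among islet markers neurod1 was at 0 in every 1% EtOH HFHC liver, and among intestinal markers lct was. Of 18 exocrine pancreas markers 17 were found, and these differed without overlap, as described with the digestive enzymes below. The sum of 9 of 9 biliary epithelium markers did not overlap either, at 1188 to 1615 CPM in 1% EtOH HFHC livers and 3167, 1996, 3762, 1647 and 1675 CPM in 0% EtOH ND livers, with the highest 2 in replicates 1 and 3. Of the 8 tested 4 were above 0 and 4 below, and none passed. The members did not move together. In 0% EtOH ND livers krt4 reached 2210 CPM and cldn15la 341 CPM, against at most 21.4 and 0.792 CPM in 1% EtOH HFHC livers. Only sox9b, her6 and hnf1ba had higher maxima in 1% EtOH HFHC livers. The 12 ovary and 10 germ cell markers stayed at or below 2.87 CPM in every liver of both groups. Because these are bulk samples, fewer cells of a type and less RNA per cell cannot be told apart.

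**Figure D1:**
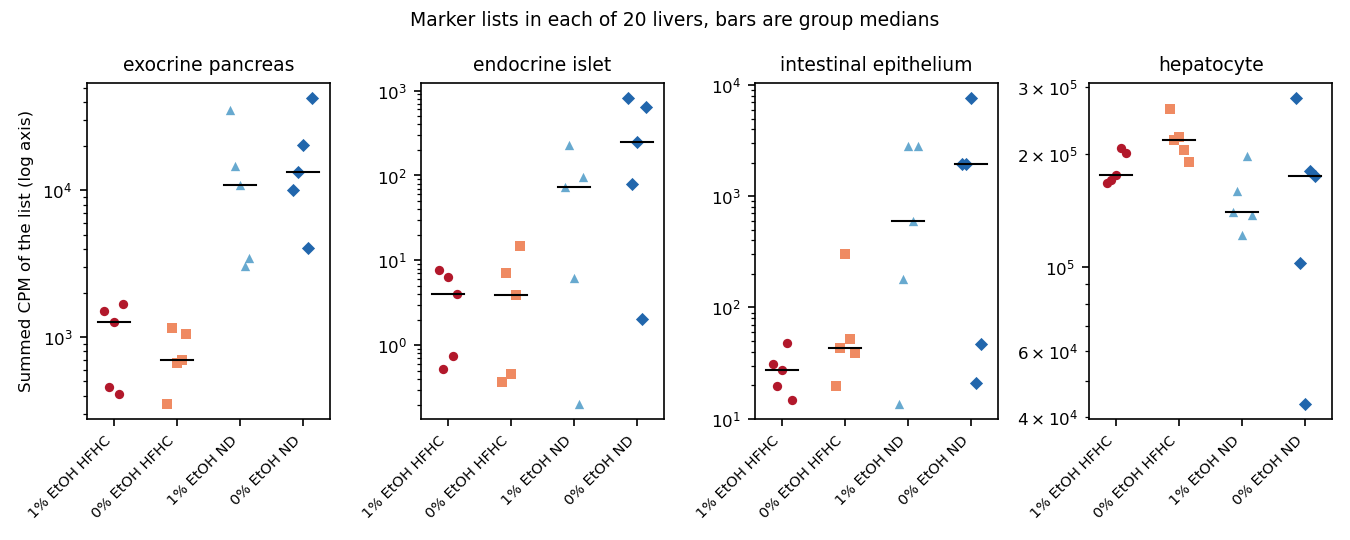
Summed CPM (log axis) of the exocrine pancreas, endocrine islet, intestinal epithelium and hepatocyte marker lists in each of 20 livers, scaled together; each point is 1 liver and the bar is the group median. Exocrine sums were 412 to 1674 in 1% EtOH HFHC livers, 352 to 1163 in 0% EtOH HFHC livers, 3054 to 35200 in 1% EtOH ND livers and 4050 to 42480 in 0% EtOH ND livers, so that the diet groups did not overlap.

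Of 12381 genes tested, 69 differed between 1% EtOH HFHC and 0% EtOH ND livers at an adjusted p under 0.05 (0.557%; quasi-likelihood F-test of edgeR, Benjamini-Hochberg correction over all genes tested). Of these, 17 were higher (0.137%) and 52 were lower (0.42%). The median log2 fold change of all genes tested was -0.01, with 48.6% of genes above 0 and 51.4% below, and 446 genes (3.6%) had CPM values that did not overlap between the groups. All but 2 of the 69, the glucagon gene gcga and the chaperone gene clu, were among those. Among the 17 higher genes nceh1a, elovl5, HACD1, agpat3, ech1 and a pair of MPC2 genes serve lipid or pyruvate handling, and of the 52 lower genes 15 were on the list of exocrine pancreas markers. The 15 do not hold all lower genes of digestive secretion. Of the 34 lower genes on no list, 5 were CELA1 (1 of many) elastases, and cell, sycn.1, pdia2 and dnase1 were others.

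The count of 69 rested on single livers. It was 0 or 1 with any of the 5 1% EtOH HFHC livers left out, and 2, 1 and 6 without 0% EtOH ND replicates 1, 2 and 3, but 430 without replicate 4 and 272 without replicate 5, which include all 69. With 0% EtOH ND replicates 1, 2 and 3 left out together, a setting chosen after seeing the data, no gene passed and 1128 had an unadjusted p under 0.05. DESeq2 gave 1326 genes on the same 10 livers, which include all 69, and edgeR gave 1010 (7.37%) of 13711 genes where the 20 livers of 4 groups shared an estimate of spread, 67 of the 69 among them. Of the 38 genes named by rule that were tested, 36 kept the direction of their fold change under every one of these settings and 2, nfe2l1b and fth1a, did not. The rule took its 12 genes per direction only where CPM values did not overlap between the groups. Of the other named genes that passed, only gcga overlapped. Without overlap, leaving livers out can hardly reverse a direction, so for those genes it was largely fixed in advance. Each value is given per liver so that its spread can be read.

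Of the genes that rose, nceh1a and elovl5 had the smallest p. First was nceh1a (ENSDARG00000020427, chromosome 2, 25475983 to 25487595, in GRCz10 coordinates as throughout), which codes a neutral cholesteryl ester hydrolase that frees cholesterol from its stored ester. Its level was 60.05, 40.5, 85.6, 32.6 and 56.6 CPM in 1% EtOH HFHC livers, against 12.8, 7.697, 6.49, 7.75 and 7.32 CPM in 0% EtOH ND livers. The lowest exposed liver was above the highest control liver, replicate 1, which itself stood above its group, and the fold was 6.58 (log2 fold change 2.72, SE 0.29, adjusted p = 0.0149). Its call was lost in 3 of the 10 fits with 1 liver left out, where the adjusted p reached at most 0.0655.

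The elongase elovl5 (ENSDARG00000004979, chromosome 13, 2236616 to 2259761), which lengthens polyunsaturated fatty acids, had the largest fold of the 12 rule-named genes that rose. It measured 134, 149, 240.5, 246 and 148 CPM in 1% EtOH HFHC livers and 20.8, 17.4, 16.9, 32.8 and 46.4 CPM in 0% EtOH ND livers. Every exposed liver was above every control liver, with replicates 3 and 4 the highest of the exposed and replicates 4 and 5 the highest of the controls (6.83-fold, log2 fold change 2.77, SE 0.34, adjusted p = 0.0149). Without 0% EtOH ND replicates 1, 2 and 3 its log2 fold change was 2.2. HACD1 (ENSDARG00000103744, chromosome 7, 58718618 to 58728640), annotated as a 3-hydroxyacyl-CoA dehydratase of the same elongation cycle, was low in abundance, at 4.36, 5.805, 5.22, 6.86 and 4.87 CPM in 1% EtOH HFHC livers and 1.78, 1.71, 1.02, 2.73 and 1.44 CPM in 0% EtOH ND livers. The groups were apart by more than their own spread (log2 fold change 1.65, SE 0.27, adjusted p = 0.0334). The acyltransferase agpat3 (ENSDARG00000036549, chromosome 1, 46143474 to 46184261), which builds phosphatidic acid and phospholipid from acyl-CoA, was the most abundant of the 12 rule-named higher genes. It stood at 645, 529, 622, 771 and 634 CPM in 1% EtOH HFHC livers, against 247, 292, 234, 261 and 381 CPM in 0% EtOH ND livers, a 2.26-fold rise with no overlap (log2 fold change 1.18, SE 0.20, adjusted p = 0.0334).

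Pyruvate entry to the mitochondrion was represented by a pair of genes annotated as the carrier subunit MPC2. MPC2 (1 of many) (ENSDARG00000037679, chromosome 1, 9999732 to 10012492) was at 78.6, 121, 99.5, 73.7 and 75.5 CPM in 1% EtOH HFHC livers and 22.6, 35.5, 20.2, 39.3 and 29.04 CPM in 0% EtOH ND livers (log2 fold change 1.61, SE 0.23, adjusted p = 0.0324). A second gene of that name, mpc2 (ENSDARG00000024478, chromosome 9, 34412812 to 34418287), named after its values were seen, was more abundant, at 596, 607, 622, 495 and 477 CPM in 1% EtOH HFHC livers and 238, 131, 70.97, 176 and 256 CPM in 0% EtOH ND livers (log2 fold change 1.68, SE 0.32, adjusted p = 0.0458). Neither gene overlapped between the groups, and the lowest mpc2 value was that of 0% EtOH ND replicate 3. Reads of like copies can be split or lost by the counting, so their separate levels are uncertain.

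Calreticulin was the only member of the unfolded protein response and ER chaperone list to pass the test. Of all genes tested 0.137% passed as higher. calr (ENSDARG00000076290, chromosome 8, 16546627 to 16556779) codes a calcium-binding lectin chaperone of the ER lumen and was at 69.6, 45.9, 69.3, 111 and 66.7 CPM in 1% EtOH HFHC livers, against 24.02, 25.8, 26.4, 25.2 and 33.5 CPM in 0% EtOH ND livers. Replicate 4 was the highest exposed liver and replicate 2 the lowest, still above the highest control, replicate 5 (2.69-fold, log2 fold change 1.43, SE 0.23, adjusted p = 0.0334). Of 37 genes on the list 35 were tested, 28 were above 0 and 7 below, and the median log2 fold change was 0.31. At an unadjusted p under 0.05 there were 10 higher members and 0 lower ones, beside 5.59% and 9.9% of all genes tested. Members beyond calr were chosen here after their values were seen, and none of them passed. The disulfide isomerase p4hb was at 656, 755, 959, 715 and 841 CPM in 1% EtOH HFHC livers and 525, 450.3, 402, 578 and 542 CPM in 0% EtOH ND livers, without overlap (log2 fold change 0.65, adjusted p = 0.135 in the same edgeR fit). The co-chaperone dnajb11 was at 13.9 to 32.5 CPM in 1% EtOH HFHC livers and 5.93 to 15.3 CPM in 0% EtOH ND livers (log2 fold change 0.99, adjusted p = 0.13), overlapping only through exposed replicate 2. Hypoxia-upregulated hyou1 had a log2 fold change of 0.86, the secreted ER factor manf one of 0.99, and the ATF6 target creld2 one of 1.47, with adjusted p between 0.141 and 0.246. With each liver left out in turn the list's median was between 0.23 and 0.45. Without 0% EtOH ND replicates 1, 2 and 3 it was 0.36, over 36 genes tested.

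**Figure D2:**
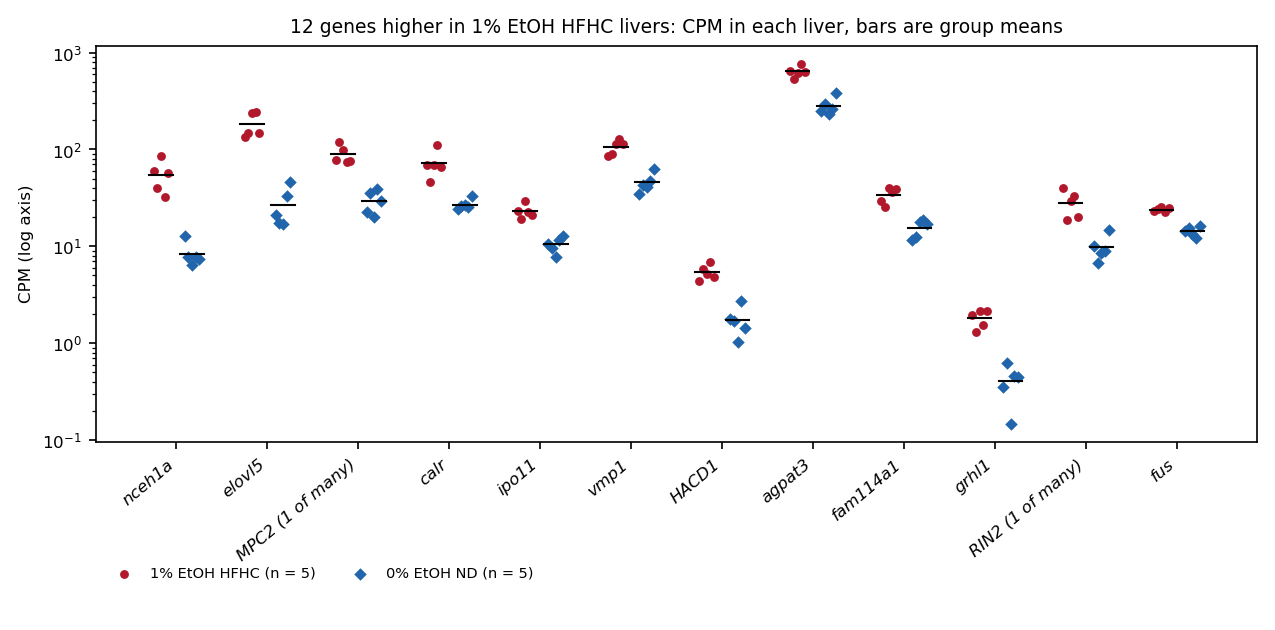
CPM (log axis) of the 12 rule-named genes that were higher in 1% EtOH HFHC livers (red circles, n = 5), beside 0% EtOH ND livers (blue diamonds, n = 5); points are livers and bars are group means. The naming rule admitted only genes whose groups do not overlap, and the fitted folds run between 1.68 for fus and 6.83 for elovl5.

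The other rule-named genes that rose were of trafficking, transcription and RNA binding. vmp1 (ENSDARG00000012450, chromosome 15, 17407297 to 17437330), an ER membrane protein required for autophagosome formation, measured 86.3, 90.6, 113, 128 and 115 CPM in 1% EtOH HFHC livers and 34.9, 43.1, 41.2, 47.4 and 62.6 CPM in 0% EtOH ND livers (log2 fold change 1.22, SE 0.20, adjusted p = 0.0334). The nuclear import receptor ipo11 (ENSDARG00000054224, chromosome 8, 32019492 to 32345450) was at 23.4, 19.2, 29.2, 22.7 and 20.8 CPM in 1% EtOH HFHC livers and 10.7, 9.64, 7.73, 11.7 and 12.9 CPM in 0% EtOH ND livers (log2 fold change 1.13, SE 0.18, adjusted p = 0.0334). RIN2 (1 of many) (ENSDARG00000077040, chromosome 6, 6665423 to 6691767), annotated as a Ras and Rab interactor of endocytosis, averaged 28.3 ± 9.04 CPM in 1% EtOH HFHC livers and 9.79 ± 2.96 CPM in 0% EtOH ND livers (SD, n = 5 each), a 2.899-fold difference (adjusted p = 0.0342). As the naming rule required, every exposed liver was above every control liver in all 3 genes. The grainyhead-like epithelial transcription factor grhl1 (ENSDARG00000061391, chromosome 17, 32438545 to 32473881) was scarce, with 1.97, 1.32, 2.15, 1.52 and 2.15 CPM in 1% EtOH HFHC livers and 0.356, 0.622, 0.146, 0.456 and 0.443 CPM in 0% EtOH ND livers (log2 fold change 2.14, SE 0.37, adjusted p = 0.0334). fus (ENSDARG00000037968, chromosome 3, 32566707 to 32579566), an RNA-binding protein of splicing, had the smallest fold of the 12, at 23.1, 24.01, 25.4, 22.7 and 24.6 CPM in 1% EtOH HFHC livers and 14.4, 15.3, 13.5, 12.1 and 16.2 CPM in 0% EtOH ND livers (log2 fold change 0.74, SE 0.13, adjusted p = 0.0346). fam114a1 (ENSDARG00000008287, chromosome 1, 17882810 to 17899131) averaged 34.1 ± 6.27 CPM in 1% EtOH HFHC livers and 15.5 ± 3.24 CPM in 0% EtOH ND livers (SD, n = 5 each) (log2 fold change 1.14, SE 0.20, adjusted p = 0.0334). Its span overlaps klf3, and since the counting is not stated to use strand, reads of the overlap cannot be assigned with certainty.

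Apart from the clock gene described next and mpc2, the higher genes outside the rule were taf6, tmed3 and ech1, named after their values were seen. ech1 (ENSDARG00000012915, chromosome 15, 6930190 to 6949489), a dienoyl-CoA isomerase for the oxidation of unsaturated fatty acids whose span overlaps mrps22, was at 115, 106, 103, 116 and 118 CPM in 1% EtOH HFHC livers, against 54.1, 59.01, 60.1, 71.9 and 75.5 CPM in 0% EtOH ND livers (log2 fold change 0.80, SE 0.15, adjusted p = 0.0458). The exposed livers had an SD of 6.44 CPM (n = 5) and lay above all controls. tmed3, a cargo receptor between ER and Golgi, averaged 26.2 ± 4.597 CPM in 1% EtOH HFHC livers and 13.9 ± 1.88 CPM in 0% EtOH ND livers (SD, n = 5 each) (adjusted p = 0.0424). taf6, a subunit of the TFIID transcription complex, averaged 29.9 ± 12.4 CPM in 1% EtOH HFHC livers and 8.38 ± 2.69 CPM in 0% EtOH ND livers (SD, n = 5 each) (adjusted p = 0.0364), and its groups were separated only by the step between 12.9 CPM in exposed replicate 1 and 12.7 CPM in control replicate 4.

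Genes of fatty acid oxidation and PPAR targets lay mostly above 0. Of 35 genes 29 were tested, 20 were above 0 and 9 below, and the median log2 fold change was 0.49. None passed the adjusted threshold in this fit of 10 livers. At an unadjusted p under 0.05, 12 were higher and 4 lower, beside 5.59% and 9.9% of all genes tested. The members below were chosen after their values were seen. Carnitine palmitoyltransferase cpt2 (ENSDARG00000038618, chromosome 8, 21105361 to 21110517), which releases fatty acyl-CoA inside the mitochondrion, came closest, at 68.5, 75.3, 88.1, 79.2 and 91.4 CPM in 1% EtOH HFHC livers, against 37.9, 49.2, 56.5, 44.2 and 48.5 CPM in 0% EtOH ND livers. The groups did not overlap (log2 fold change 0.77, SE 0.16, adjusted p = 0.0665). The trifunctional protein subunit hadhaa was at 233 to 304 CPM in 1% EtOH HFHC livers and 134 to 202 CPM in 0% EtOH ND livers (log2 fold change 0.74, adjusted p = 0.0773). Very-long-chain dehydrogenase acadvl was at 556 to 748 CPM in 1% EtOH HFHC livers and 233 to 441 CPM in 0% EtOH ND livers (0.86, adjusted p = 0.0861), and the thiolase acaa2 at 268 to 326 CPM in 1% EtOH HFHC livers and 84.3 to 214 CPM in 0% EtOH ND livers (1.04, adjusted p = 0.0966). The coactivator ppargc1a, which drives mitochondrial genes, was at 6.07, 31.6, 12.1, 18.3 and 3.06 CPM in 1% EtOH HFHC livers and 1.25, 5.44, 3.72, 2.62 and 4.88 CPM in 0% EtOH ND livers, with exposed replicate 5 inside the control range (1.96, adjusted p = 0.142). The 3 members with the most negative values were acsl1b (-4.88), fabp2 (-5.96) and fabp1b.1 (-4.04), whose control values were highest in 0% EtOH ND replicates 1, 2 and 3 (fabp2 at 1380, 922, 4495, 15.3 and 21.4 CPM); the part of intestinal transcripts in these was not tested. Left out 1 at a time, the livers gave medians between 0.39 and 0.53, and 0.44 without those 3 controls.

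Fatty acid synthesis and desaturation genes did not move one way. Of 18 genes 13 were tested, 8 above 0 and 5 below, with a median of 0.42. It was 0.10, over 15 genes tested, without 0% EtOH ND replicates 1, 2 and 3, and 0.14 without replicate 1 alone. Besides elovl5 no member passed, and those that follow were chosen after their values were seen. Malic enzyme me1, a source of NADPH for lipid synthesis, was at 446, 163, 417, 560 and 321 CPM in 1% EtOH HFHC livers, against 87.9, 79.5, 21.7, 96.2 and 119.8 CPM in 0% EtOH ND livers (log2 fold change 2.23, adjusted p = 0.0576). The elongase of saturated fatty acids elovl6 was at 351, 85.8, 114, 334 and 295 CPM in 1% EtOH HFHC livers and 8.897, 34.6, 3.501, 53 and 8.09 CPM in 0% EtOH ND livers (3.45, adjusted p = 0.0744). The third elongase on the list, elovl2, which acts on longer polyunsaturated fatty acids, lay the other way, at 159.5, 103, 192, 134 and 168 CPM in 1% EtOH HFHC livers and 709.5, 272, 519, 386 and 271 CPM in 0% EtOH ND livers (-1.51, adjusted p = 0.058). So did thrsp, a lipogenic nuclear protein, at 55.95, 27.97, 4.2, 4.48 and 3.47 CPM in 1% EtOH HFHC livers and 574, 301, 87.5, 448 and 108 CPM in 0% EtOH ND livers (-3.98, adjusted p = 0.08). None of these 4 genes overlapped between the groups, though each spread widely within them. The list held 5 genes without overlap among the 13 tested, beside 3.6% of all genes tested.

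Triglyceride storage genes had a median of 0.26 over 16 tested, with 11 above 0 and none passing, and between 0.11 and 0.37 with single livers left out. The lipid droplet coat protein plin2, chosen after its values were seen, was at 80.1, 56.2, 75.6, 75.98 and 41.3 CPM in 1% EtOH HFHC livers and 2.49, 42.5, 26.8, 49.2 and 17.6 CPM in 0% EtOH ND livers (log2 fold change 1.24, adjusted p = 0.311), overlapping through exposed replicate 5, which lay below control replicates 2 and 4. Cholesterol synthesis genes had a median of 0.06 over 21 tested and none passed; that median was 0.43 without 0% EtOH ND replicates 1, 2 and 3 and lay between -0.10 (without 1% EtOH HFHC replicate 4) and 0.36 (without 0% EtOH ND replicate 1) with single livers left out. Of sterol regulators and uptake genes, 19 tested had a median of 0.04. There soat2, which esterifies cholesterol and so acts opposite to nceh1a, was at 81.2 to 108 CPM in 1% EtOH HFHC livers and 8.68 to 57.2 CPM in 0% EtOH ND livers without overlap (1.44, adjusted p = 0.119), again named after its values were seen.

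Genes of the circadian clock stood on both sides. The circadian clock turns on an activator arm (Bmal and Clock proteins, here arntl1a, arntl1b, arntl2 and clocka) that drives its own repressors and output factors. Of 37 clock genes 33 were tested, and 1 rose and 2 fell, beside 0.137% and 0.42% of all genes tested. The list median was -0.20. bhlhe41 (ENSDARG00000041691, chromosome 18, 16136786 to 16141099), a repressor of the activator arm, was at 3.16, 1.58, 2.56, 1.62 and 1.98 CPM in 1% EtOH HFHC livers, against 12.1, 14.2, 21.1, 10.03 and 5.99 CPM in 0% EtOH ND livers. The highest exposed liver was below the lowest control, replicate 5 (5.81-fold lower, log2 fold change -2.54, SE 0.34, adjusted p = 0.0311). The output factor tefa (ENSDARG00000039117, chromosome 12, 19022959 to 19031303), a PAR bZIP protein, was at 28.8, 37.5, 33.4, 24.1 and 24.9 CPM in 1% EtOH HFHC livers and 62.5, 49.8, 69.5, 83.2 and 50.4 CPM in 0% EtOH ND livers (log2 fold change -1.08, SE 0.20, adjusted p = 0.0391). The cryptochrome cry1bb (ENSDARG00000091131, chromosome 22, 748818 to 792003), whose span overlaps btg2, rose to 23.4, 30.9, 29.2, 31.6 and 40.1 CPM in 1% EtOH HFHC livers, against 16.9, 16.5, 17.6, 18.7 and 13.2 CPM in 0% EtOH ND livers (log2 fold change 0.90, SE 0.17, adjusted p = 0.0463). For both, too, the groups did not overlap.

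No other clock gene passed, and the following were chosen after their values were seen. In the activator arm, clocka was at 4.1, 6.25, 6.35, 3.91 and 8.01 CPM in 1% EtOH HFHC livers and 1.07, 2.96, 3.06, 2.05 and 3.33 CPM in 0% EtOH ND livers (log2 fold change 1.17, adjusted p = 0.113), and arntl2 at 1.33 to 3.63 CPM in 1% EtOH HFHC livers and 0.114 to 1.09 CPM in 0% EtOH ND livers (1.82, adjusted p = 0.104). arntl1b had a log2 fold change of 1.02 and arntl1a one of 0.34. In the repressor and output arms, nr1d1 was at 19.1, 9.68, 25.4, 14.6 and 6.28 CPM in 1% EtOH HFHC livers and 44.5, 25.04, 30.3, 36.9 and 36.02 CPM in 0% EtOH ND livers (-1.20, adjusted p = 0.124), overlapping only at exposed replicate 3. Period genes per1a and per1b had log2 fold changes of -0.95 and -0.53, cry2 of -0.66 and ciarta of -0.75. At an unadjusted p under 0.05 the list held 6 genes higher and 8 lower, beside 5.59% and 9.9% of all genes tested. The hour at which livers were dissected is not given in the sources used here.

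Digestive enzymes of the exocrine pancreas were the list with the most genes that fell. Of 18 marker genes 17 were in the tables and 16 were tested, and 15 fell, beside 0.42% of all genes tested. The median log2 fold change was -4.15. The summed level of the 17 was 1509, 459.4, 1276, 417 and 1665 CPM in 1% EtOH HFHC livers, against 10440, 14070, 21370, 4064 and 42980 CPM in 0% EtOH ND livers. No exposed liver reached the lowest control, replicate 4, and the highest control was replicate 5, which had little intestinal transcript. The sixteenth member, the phospholipase pla2g1b, was at 22.1, 10.8, 18.5, 18.6 and 57.6 CPM in 1% EtOH HFHC livers and 27.2, 41.2, 68.7, 68.04 and 159.6 CPM in 0% EtOH ND livers (log2 fold change -1.51, adjusted p = 0.196). Without 0% EtOH ND replicates 1, 2 and 3 the median was -4.50 and no member passed; with single livers left out the median lay between -4.41 and -3.57, and 15 members passed without 0% EtOH ND replicate 4 or 5 and 0 without any of the other 8 livers.

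By role, proteases came first. The elastase ela2 (ENSDARG00000056744, chromosome 8, 21344204 to 21349649) was at 41.2, 8.97, 32.98, 11.9 and 35.8 CPM in 1% EtOH HFHC livers, against 434, 487, 654, 141 and 1248 CPM in 0% EtOH ND livers (22.6-fold lower, log2 fold change -4.50, SE 0.64, adjusted p = 0.0324). Its neighbour ela2l (ENSDARG00000056765, chromosome 8, 21334686 to 21340400), which overlaps alas2, was at 93.03, 33.4, 65.3, 23.1 and 84.8 CPM in 1% EtOH HFHC livers and 819, 802, 1501, 240 and 2846 CPM in 0% EtOH ND livers (log2 fold change -4.37, SE 0.67, adjusted p = 0.0334). The elastases read together across livers, lowest in exposed replicates 2 and 4 and highest in control replicate 5. Of 7 genes carrying the symbol CELA1 (1 of many), elastases clustered on chromosome 22, 5 fell as well, and the pair named by the rule (ENSDARG00000043173, 7450619 to 7453909, and ENSDARG00000095462, 7433161 to 7446506) had log2 fold changes of -4.74 and -4.55 with adjusted p of 0.0324 and 0.0334. The first of them was at 10.8, 6.33, 10.8, 4.58 and 17.4 CPM in 1% EtOH HFHC livers and 108, 171, 328, 70.32 and 663 CPM in 0% EtOH ND livers. Because such copies share sequence and some of their spans overlap, the level of any single copy is uncertain. Trypsin, try (ENSDARG00000042993, chromosome 16, 25165732 to 25181539), the most abundant of the rule-named lower genes, was at 243, 88.9, 201, 74.8 and 268 CPM in 1% EtOH HFHC livers, against 1854, 2101, 3377, 659.8 and 6239 CPM in 0% EtOH ND livers (log2 fold change -4.02, SE 0.62, adjusted p = 0.0334). The carboxypeptidase cpa4 (ENSDARG00000043722, chromosome 25, 16485772 to 16493061) was at 5.38, 2.199, 10.2, 2.48 and 5.37 CPM in 1% EtOH HFHC livers and 45.7, 70.6, 91.5, 21.5 and 190.2 CPM in 0% EtOH ND livers (log2 fold change -4.03, SE 0.63, adjusted p = 0.0334).

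Starch and ester digestion followed the same pattern. Pancreatic amylase amy2a (ENSDARG00000013856, chromosome 2, 15944165 to 15958382) was at 57.1, 14.2, 62.2, 30.7 and 122 CPM in 1% EtOH HFHC livers, against 609, 1297, 1688, 407 and 3809 CPM in 0% EtOH ND livers (27.3-fold lower, log2 fold change -4.77, SE 0.76, adjusted p = 0.0334). cell (ENSDARG00000029822, chromosome 21, 11292403 to 11301351), a gene like the carboxyl ester lipase that digests cholesteryl esters in the gut, was at 42.2, 20.6, 52.5, 18.7 and 67.7 CPM in 1% EtOH HFHC livers and 387, 617, 1063, 164 and 2199 CPM in 0% EtOH ND livers (log2 fold change -4.46, SE 0.71, adjusted p = 0.0334). Both genes were lowest in exposed replicates 2 and 4 and highest in control replicate 5. Pancreatic secretory genes off the list fell as well, among them sycn.1 (log2 fold change -3.83), pdia2 (-3.75) and dnase1 (-4.18), each with an adjusted p of 0.0334 and named after its values were seen.

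Of the islet list 4 genes were tested and 1 fell, beside 0.42% of all genes tested. The glucagon gene gcga (ENSDARG00000079296, chromosome 22, 11587838 to 11596336) was at 1.54, 0.08796, 1.13, 0.0953 and 0.991 CPM in 1% EtOH HFHC livers, against 132, 17.1, 50.8, 1.25 and 147 CPM in 0% EtOH ND livers (log2 fold change -6.47, SE 1.19, adjusted p = 0.0391), overlapping at control replicate 4. Insulin, ins, did not pass, at 2.22, 0.176, 1.95, 0.191 and 1.24 CPM in 1% EtOH HFHC livers and 442, 36.1, 123, 0.228 and 324 CPM in 0% EtOH ND livers (log2 fold change -7.31, adjusted p = 0.058). Control replicate 4 was thus low in islet and intestinal transcripts and lowest of its group in exocrine ones. Of the intestinal list 3 genes were tested, vil1, fabp2 and anpepb, and none passed (log2 fold changes of -9.03, -5.96 and -4.74). Their median was -5.96. Without control replicates 1, 2 and 3 the filter kept 4 genes of the list, with a median of -1. The largest fold of all 69 genes, that of MGAM (ENSDARG00000101629, chromosome 18, 2028736 to 2117027), annotated as the intestinal starch enzyme maltase-glucoamylase, showed the same split, at 1.02, 0.528, 0.922, 0 and 0.744 CPM in 1% EtOH HFHC livers and 164, 539, 1510, 1.14 and 11.5 CPM in 0% EtOH ND livers (log2 fold change -9.40, SE 1.80, adjusted p = 0.049). It was named after its values were seen, and its highest values were those of the 3 controls with intestinal transcripts.

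Some lower genes belonged to no digestive list. pglyrp6 (ENSDARG00000103642, chromosome 3, 13474969 to 13483485), which codes a peptidoglycan recognition protein, an antibacterial factor, had the smallest p of the genes that fell. It was at 1.45, 0.352, 1.13, 0.667 and 1.98 CPM in 1% EtOH HFHC livers, against 104, 24.96, 164, 28.6 and 252 CPM in 0% EtOH ND livers (101-fold lower, log2 fold change -6.66, SE 0.80, adjusted p = 0.0149). Control replicates 5 and 3 were its highest and replicates 2 and 4 its lowest. The exocrine pancreas sum was also highest in replicates 5 and 3, but lowest in 4 and 1. The islet sum was also lowest in replicates 4 and 2, but highest in 1 and 5. Among these controls pglyrp6 thus followed neither sum in full. In 1% EtOH ND livers, scaled over 20 livers, it was at 194.7, 62, 19.9, 2.06 and 12.8 CPM. The exocrine sum there, at 35200, 14600, 10810, 3054 and 3454 CPM, had the same order. The islet sum, at 73.7, 226.6, 6.15, 0.206 and 96.9 CPM, did not. In the HFHC groups, where pglyrp6 was at most 1.99 CPM, its order matched that of the exocrine sum only in part. The part of pancreatic transcripts in this gene was not tested. Its log2 fold change was -6.96 without the 3 controls that held intestinal transcripts. frzb (ENSDARG00000018383, chromosome 9, 45031080 to 45038196), a secreted Wnt antagonist, was at 0.256, 0.08796, 0.205, 0.286 and 0.248 CPM in 1% EtOH HFHC livers and 1.78, 4.28, 6.64, 1.596 and 4.88 CPM in 0% EtOH ND livers (17.1-fold lower, log2 fold change -4.10, SE 0.50, adjusted p = 0.0149). At this depth the lowest frzb value, in exposed replicate 2, rests on a single read, so the exact fold is imprecise. anxa2a (ENSDARG00000003216, chromosome 25, 33527666 to 33541952), a calcium-dependent membrane-binding annexin, was at 4.36, 3.78, 3.28, 3.34 and 4.38 CPM in 1% EtOH HFHC livers and 13.7, 10.2, 13.5, 7.75 and 7.87 CPM in 0% EtOH ND livers (log2 fold change -1.46, SE 0.22, adjusted p = 0.0334). In the fit of 20 livers anxa2a no longer passed (log2 fold change -1.42, adjusted p = 0.121).

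Lower genes outside the rule, named after their values were seen, included keratins, oxidoreductases and a matrix protein. The keratin krt15 was at 8.201, 13.02, 12.6, 8.29 and 7.02 CPM in 1% EtOH HFHC livers and 52.1, 33.1, 69.4, 18.8 and 23.8 CPM in 0% EtOH ND livers (log2 fold change -2.01, adjusted p = 0.0368), highest in the 3 controls with intestinal transcripts. cbr1l, like a carbonyl reductase, was at 28.96, 12.3, 9.53, 12.97 and 30.8 CPM in 1% EtOH HFHC livers and 46.4, 79.9, 121, 78.1 and 78.8 CPM in 0% EtOH ND livers (-2.09, adjusted p = 0.0364), and did not pass in the fit of 20 livers (log2 fold change -2.05, adjusted p = 0.0795). spata20 averaged 5.95 ± 0.932 CPM in 1% EtOH HFHC livers and 11.9 ± 1.84 CPM in 0% EtOH ND livers (SD, n = 5 each) (adjusted p = 0.0338). AEBP1 (1 of many), annotated as a collagen-binding matrix protein, averaged 2.24 ± 0.756 CPM in 1% EtOH HFHC livers and 6.05 ± 1.01 CPM in 0% EtOH ND livers (SD, n = 5 each) (adjusted p = 0.0334). In none of these 4 genes did the groups overlap.

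No member of the next lists passed the test in the 10 livers. Of 75 cytosolic ribosomal protein genes tested, 74 were below 0 and 1, rps8b, above, with a median log2 fold change of -0.37, yet none had even an unadjusted p under 0.05. With single livers left out that median lay between -0.49 and -0.03 (lowest without 0% EtOH ND replicate 2 and nearest 0 without replicate 1), and it was -0.17 without the 3 controls. Complement and coagulation genes, made by hepatocytes, lay the other way, with 43 of 47 above 0 and a median of 0.35, and none passed. That median was 0.16 without the 3 controls and lay between 0.17 (without 0% EtOH ND replicate 3) and 0.53 (without replicate 1) with single livers left out, and the hepatocyte marker genes had a median of 0.23 beside it, 0.07 without the 3 controls; their part in it was not tested. Mitochondrial respiratory chain genes had 39 of 44 below 0 and a median of -0.17, which was 0.09 without the 3 controls. Interferon response genes had a median of -0.92 over 22 tested, and -0.23 over 23 tested without the 3 controls. Of the 22, 14 were lower at an unadjusted p under 0.05, beside 9.9% of all genes tested, and none passed. In the fit of 20 livers described below, 1 interferon gene passed as higher and 13 as lower, beside 1.67% and 5.7% of all genes tested. MHC class I and antigen processing genes had a median of -0.88 over 24 tested, and 0.19 over 25 tested without the 3 controls. Alcohol and aldehyde metabolism genes, 14 tested, had a median of -0.02 with 7 above and 7 below 0 and none passing.

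**Figure D3:**
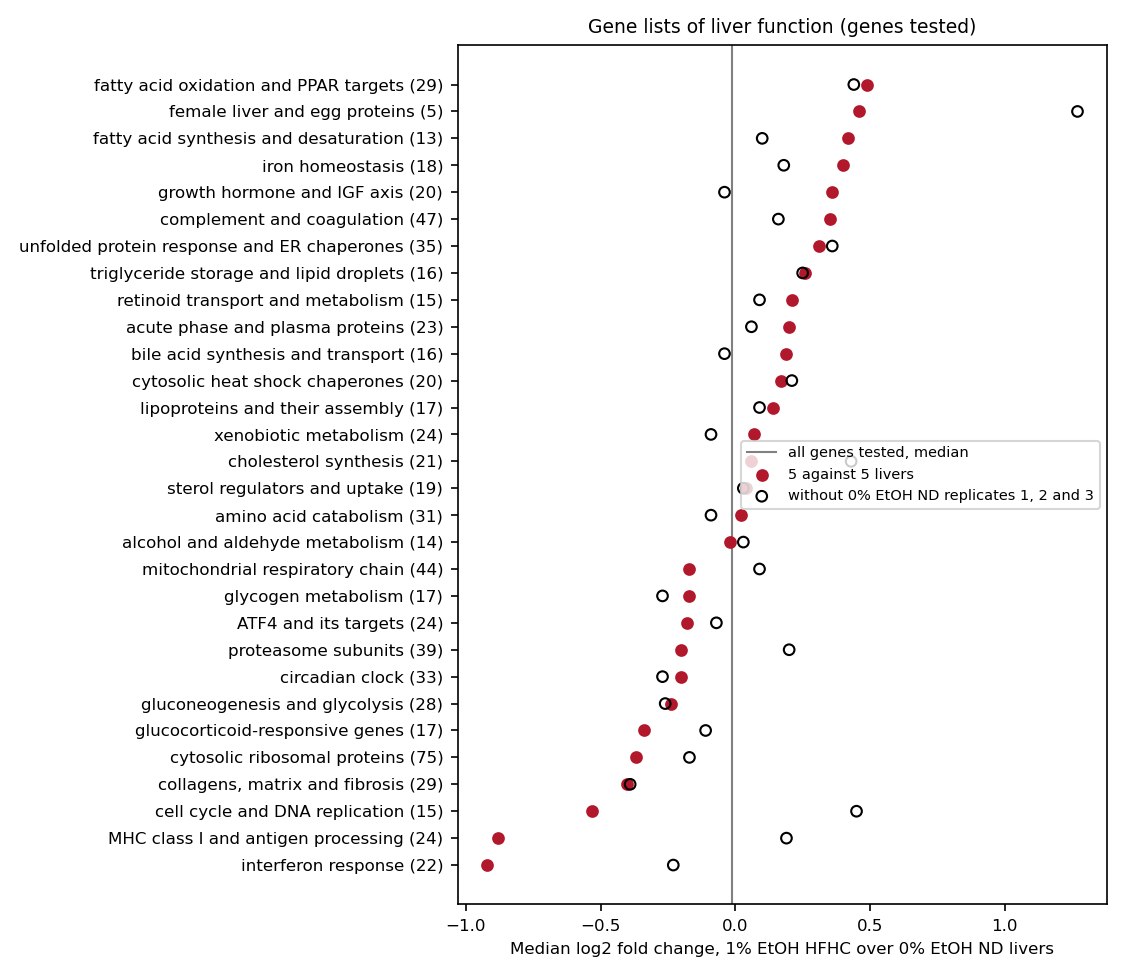
Median log2 fold change (1% EtOH HFHC over 0% EtOH ND livers) of 30 gene lists of liver function, with the number of genes tested for the filled points in brackets. Filled points use 5 against 5 livers, open points leave out 0% EtOH ND replicates 1, 2 and 3, and the line is the median of all genes tested. Genes were filtered anew for the open points, so the members of a list can differ. Fatty acid oxidation (0.49 and 0.44) and ER chaperones (0.31 and 0.36) stay in place between filled and open points, and MHC class I (-0.88 and 0.19) does not.

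The double exposure was then read beside each single one in 20 livers fitted together. Here CPM are scaled over the 20 livers and given as median and range, and since the contrasts share livers their values stand side by side only. Set against 0% EtOH ND livers in this fit, 1010 genes (7.37%) passed for the double exposure, 1195 (8.72%) for 0% EtOH HFHC livers and 0 for 1% EtOH ND livers. The double exposure had 229 higher (1.67%) and 781 lower (5.7%), and the diet alone 276 (2.01%) and 919 (6.7%). The lower genes of each included 15 exocrine pancreas and 5 islet markers, and 10 and 9 intestinal ones in that order. The part of such transcripts in these counts was not tested. Neither count was taken with livers left out. Against 0% EtOH HFHC livers, that is against the diet alone, 0 of 13711 genes passed (0%), and 634 had an unadjusted p under 0.05 (4.62%; the edgeR test used above). On the same 20 livers DESeq2 gave 23 genes and limma-voom 0. The study, also with DESeq2, reported more transcripts than these at an adjusted p under 0.05 for 1% EtOH fish on the HFHC diet. Its comparison was of 1% with 0% EtOH HFHC livers, whereas the fit here held 20 livers. Against 1% EtOH ND livers, that is against EtOH alone, 18 genes were higher (0.131%) and 48 lower (0.35%). The interaction, the difference between the EtOH effects on the diets, had 0 genes at an adjusted p under 0.05, 679 at an unadjusted one (4.95%), 2 by DESeq2 and 0 by limma-voom.

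**Figure D4:**
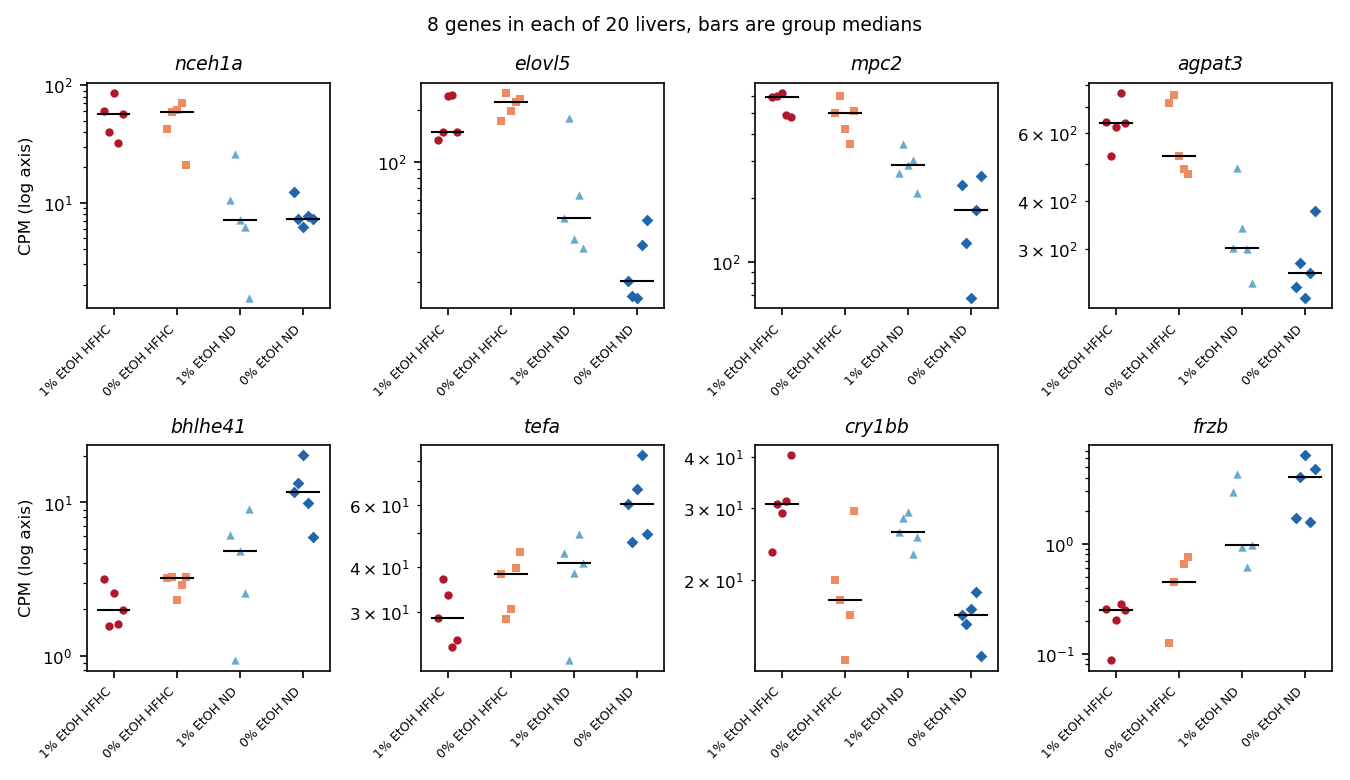
CPM (log axis) of 8 genes that differed between 1% EtOH HFHC and 0% EtOH ND livers, in the 20 livers of 4 groups; points are livers, bars are medians, and groups run from both challenges at the left to neither at the right. nceh1a has medians of 56.9 and 58.9 CPM in the HFHC groups and 7.16 and 7.29 CPM in the ND groups, whereas cry1bb has medians of 30.6 and 26.2 CPM in the 1% EtOH groups and 17.9 and 16.4 CPM in the 0% EtOH groups.

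For the lipid genes nceh1a, elovl5 and agpat3, the values of livers on diet alone overlapped those of the double exposure. nceh1a had a median of 56.9 CPM (32.2 to 85.5) in 1% EtOH HFHC livers, 58.9 (21.04 to 70.9) in 0% EtOH HFHC livers, 7.16 (1.54 to 25.9) in 1% EtOH ND livers and 7.29 (6.22 to 12.4) in 0% EtOH ND livers. Between the HFHC groups its log2 difference was 0.11 (SE 0.47), and against 1% EtOH ND livers 2.42 (adjusted p = 0.0427). elovl5 had a median of 148 CPM (134 to 243) in 1% EtOH HFHC livers, 222 (173 to 249) in 0% EtOH HFHC livers, 47.3 (31.7 to 179.8) in 1% EtOH ND livers and 20.2 (16.1 to 45.9) in 0% EtOH ND livers. Here the diet alone gave 3.03 over 0% EtOH ND (adjusted p = 0.00253) and EtOH alone 1.45 (adjusted p = 0.507), and their sum exceeded the 2.80 of both, an interaction of -1.68 (SE 0.57, unadjusted p = 0.00883, adjusted p = 0.942). agpat3 was at 637 CPM (524 to 762) in 1% EtOH HFHC livers and 525 (469 to 752) in 0% EtOH HFHC livers, against 302 (245 to 487) in 1% EtOH ND livers and 260 (224 to 377) in 0% EtOH ND livers, with the HFHC and ND groups apart but for 1 ND liver.

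Among the genes higher than in 1% EtOH ND livers were several of fatty acid oxidation, named after their values were seen. Over 1% EtOH ND livers cpt2 had a log2 fold change of 0.92 (adjusted p = 0.0354), hadhaa of 0.73, acadl of 0.61 and acaa1 of 0.59. Thus 4 of the list's members passed as higher in this contrast and 0 as lower, beside 0.131% and 0.35% of all genes tested. Against 0% EtOH ND livers in the same fit, 9 members passed as higher and 3 as lower, beside 1.67% and 5.7%. For the diet alone 7 passed as higher and 2 as lower, beside 2.01% and 6.7%. HACD1 (1.59), nceh1a (2.42), agpat3 (0.93) and taf6 (1.62) passed against 1% EtOH ND livers and in the comparison with 0% EtOH ND livers. The methionine synthase gene mtr had the smallest p against 1% EtOH ND livers, with a log2 fold change of 1.32 (adjusted p = 0.0354). Of the 48 lower genes 14 were on the exocrine pancreas list, whose 17 markers summed to 412 to 1674 CPM in 1% EtOH HFHC livers and 3054 to 35200 CPM in 1% EtOH ND livers. Others were cldn15a (-6.89), an intestinal epithelium marker, and MGAM (-8.29). The intestinal marker sum was 14.8 to 47.5 CPM in 1% EtOH HFHC livers, and 13.65, 180.3, 2824, 596.6 and 2830 CPM in 1% EtOH ND livers, so that replicates 2 to 5 of that group held more than any 1% EtOH HFHC liver. The germ cell markers summed to 227 CPM in 1% EtOH ND replicate 1 and to at most 4.83 CPM in the other 9 livers of this contrast. The part of these transcripts in the 66 genes was not tested. This count of 66 also hung on single livers. It was 0 or 1 without any 1% EtOH HFHC liver, 29 and 16 without 0% EtOH HFHC replicates 1 and 6 and 0 without replicates 2, 3 or 4, 260, 216 and 0 without 1% EtOH ND replicates 1, 2 and 3, and 0, 409, 317 and 275 without 0% EtOH ND replicates 2, 3, 4 and 5.

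For bhlhe41, tefa and calr the medians of both single exposures lay between those of the double exposure and of 0% EtOH ND livers. bhlhe41 had a median of 1.99 CPM (1.57 to 3.15) in 1% EtOH HFHC livers, 3.23 (2.301 to 3.27) in 0% EtOH HFHC livers, 4.83 (0.932 to 9.01) in 1% EtOH ND livers and 11.7 (5.92 to 20.3) in 0% EtOH ND livers. Diet alone gave -2.04 on the log2 scale and EtOH alone -1.38 (adjusted p = 0.0122 and 0.507). tefa had medians of 28.7 CPM in 1% EtOH HFHC livers, 38.4 in 0% EtOH HFHC livers, 41.1 in 1% EtOH ND livers and 60.5 in 0% EtOH ND livers. calr had medians of 69.2 CPM in 1% EtOH HFHC livers, 42.4 in 0% EtOH HFHC livers, 43.1 in 1% EtOH ND livers and 25.1 in 0% EtOH ND livers. For calr the single exposures gave 0.92 for diet and 0.83 for EtOH, beside 1.46 for both, with ranges that overlapped between neighbouring groups. The ER chaperone gene hspa5 was not ordered in that way, with medians of 89.7 CPM in 1% EtOH HFHC livers, 42.3 in 0% EtOH HFHC livers, 78.98 in 1% EtOH ND livers and 65.4 in 0% EtOH ND livers. cry1bb had its higher medians in the EtOH groups, at 30.6 CPM (23.4 to 40.3) in 1% EtOH HFHC livers and 26.2 (23.1 to 29.3) in 1% EtOH ND livers, against 17.9 (12.7 to 29.5) in 0% EtOH HFHC livers and 16.4 (13.04 to 18.6) in 0% EtOH ND livers. Its difference from the diet alone was 0.68 (SE 0.19, unadjusted p = 0.0017, adjusted p = 0.708), so it did not pass over all genes.

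For taf6, chosen here after its values were seen, the median with diet alone exceeded that of the double exposure. Its median was 30.3 CPM (12.9 to 47.2) in 1% EtOH HFHC livers and 90.9 (32.2 to 133) in 0% EtOH HFHC livers, a log2 difference of -1.51 (SE 0.35, unadjusted p = 0.000366, adjusted p = 0.501). In the ND groups it had medians of 9.58 CPM in 1% EtOH ND livers and 8.21 CPM in 0% EtOH ND livers. The digestive enzyme gene try did not overlap between HFHC and ND livers, and had a median of 200.3 CPM (73.9 to 269.6) in 1% EtOH HFHC livers and 132 (69.6 to 200.5) in 0% EtOH HFHC livers, against 1819 (517 to 5743) in 1% EtOH ND livers and 1989 (658 to 6166) in 0% EtOH ND livers.

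The 11 hepatic genes displayed by the study, which it had chosen on these samples, gave none that passed between 1% EtOH HFHC and 0% EtOH ND livers, and their directions are not independent evidence. The ER stress genes came first. hspa5 (ENSDARG00000103846, chromosome 5, 2440676 to 2448586), the BiP chaperone, was at 119.6, 57.9, 89.8, 185 and 64.3 CPM in 1% EtOH HFHC livers, against 93.6, 85.5, 68.2, 46.3 and 65.3 CPM in 0% EtOH ND livers (log2 fold change 0.53, SE 0.33, adjusted p = 0.472). The transcription factor atf4b (ENSDARG00000038141, chromosome 3, 24067386 to 24070271) was at 98.2, 98.3, 97.8, 117 and 95.1 CPM in 1% EtOH HFHC livers and 98.9, 68.3, 72.3, 89.3 and 70.16 CPM in 0% EtOH ND livers (0.34, SE 0.16, adjusted p = 0.337). In both genes the highest liver was exposed replicate 4 and the groups overlapped. vcp (ENSDARG00000020008, chromosome 5, 40910234 to 40920827), the ATPase that extracts misfolded proteins, averaged 159 ± 12.2 CPM in 1% EtOH HFHC livers and 135 ± 21.8 CPM in 0% EtOH ND livers (SD, n = 5 each) (adjusted p = 0.529). nfe2l1b (ENSDARG00000076533, chromosome 12, 28739508 to 28751193), a stress sensor that drives proteasome genes, averaged 15.9 ± 1.54 CPM in 1% EtOH HFHC livers and 15.6 ± 3.94 CPM in 0% EtOH ND livers (SD, n = 5 each) (log2 fold change 0.03, SE 0.19).

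Immune, storage and carrier genes varied more among the controls than among the exposed livers. mhc1uba (ENSDARG00000075963, chromosome 19, 7153929 to 7182175), an MHC class I gene, was at 47.8, 37.6, 31.6, 32.3 and 36.7 CPM in 1% EtOH HFHC livers, against 364, 202, 163, 44.7 and 34.4 CPM in 0% EtOH ND livers (-2.12, SE 0.56, adjusted p = 0.108). Control replicates 4 and 5 lay in the exposed range, and without replicates 1, 2 and 3 the log2 fold change was -0.10. Glycogenin gyg1a (ENSDARG00000011934, chromosome 2, 25281132 to 25289185), which primes glycogen, averaged 38.5 ± 6.1 CPM in 1% EtOH HFHC livers and 47.1 ± 9.82 CPM in 0% EtOH ND livers (SD, n = 5 each) (adjusted p = 0.476), and its span overlaps hltf. The retinol carrier rbp4 (ENSDARG00000101199, chromosome 12, 5080972 to 5085382), which overlaps cep55l, averaged 4483 ± 1436 CPM in 1% EtOH HFHC livers and 3596 ± 2703 CPM in 0% EtOH ND livers (SD, n = 5 each) (adjusted p = 0.804).

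The 4 iron genes varied widely within groups. The ferritin subunit fth1a (ENSDARG00000015551, chromosome 7, 12675224 to 12683988), which stores iron, was at 232, 100, 235, 134 and 388 CPM in 1% EtOH HFHC livers and 779, 213, 656, 108 and 115 CPM in 0% EtOH ND livers (log2 fold change -0.78, adjusted p = 0.566), and its log2 fold change was 0.95 without 0% EtOH ND replicates 1, 2 and 3. The iron exporter ferroportin, slc40a1 (ENSDARG00000000241, chromosome 9, 41301340 to 41312091), was at 36.5, 31.2, 50.1, 29.6 and 232 CPM in 1% EtOH HFHC livers and 12.99, 33.7, 33.2, 43.5 and 26.7 CPM in 0% EtOH ND livers (1.34, unadjusted p = 0.0464, adjusted p = 0.314). Without exposed replicate 5 that difference was 0.29. hamp (ENSDARG00000102175, chromosome 16, 50687372 to 50696683), the hormone hepcidin that removes ferroportin from the cell surface, was at 167, 339.5, 60.9, 311 and 3.06 CPM in 1% EtOH HFHC livers and 62.3, 80.5, 22.2, 149 and 129.5 CPM in 0% EtOH ND livers (0.99, adjusted p = 0.613). The same replicate 5 held the lowest hepcidin and the highest ferroportin of the exposed group. The iron carrier transferrin, tfa (ENSDARG00000016771, chromosome 2, 17112044 to 17123598), was at 35750, 41710, 45920, 40900 and 71090 CPM in 1% EtOH HFHC livers and 64360, 26960, 11710, 46640 and 46450 CPM in 0% EtOH ND livers (0.26, adjusted p = 0.819).

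**Figure D5:**
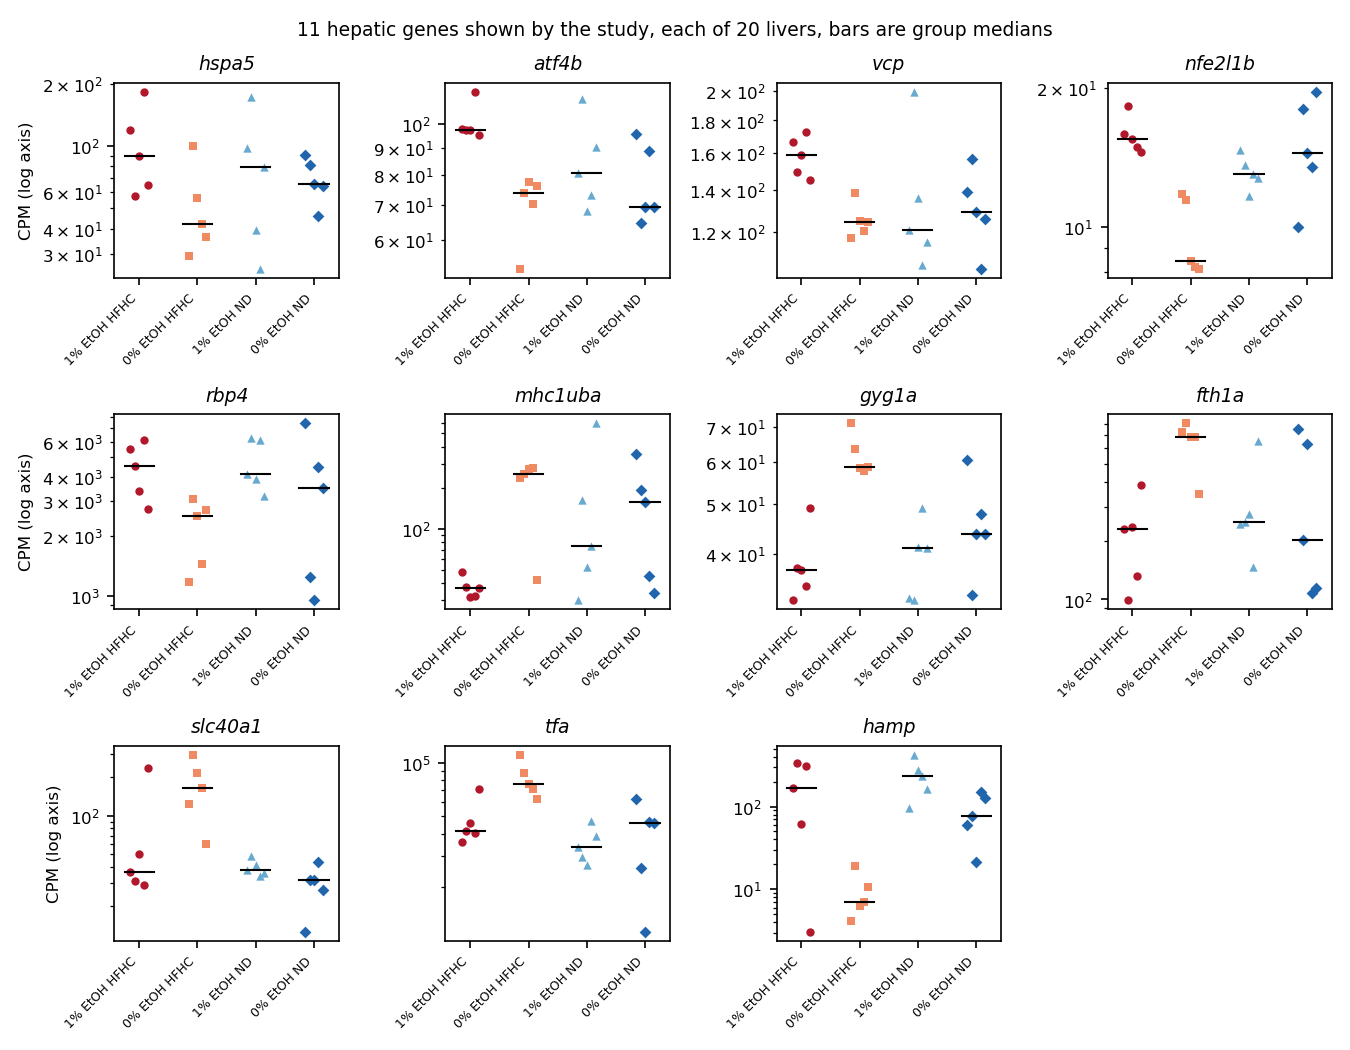
CPM (log axis) of the 11 hepatic genes displayed by the study in the 20 livers of 4 groups; points are livers and bars are medians. For hamp the median is 167 CPM in 1% EtOH HFHC livers and 7 CPM in 0% EtOH HFHC livers, against 232 CPM in 1% EtOH ND livers and 76.2 CPM in 0% EtOH ND livers.

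The study displayed these 11 genes because they differed under the HFHC diet between EtOH and 0% EtOH fish, so their distance from 0% EtOH HFHC livers was fixed by that choice and is given as a description, with no test. hamp had a median of 167 CPM (3.07 to 337) in 1% EtOH HFHC livers and 7 (4.102 to 18.9) in 0% EtOH HFHC livers, a log2 difference of 4.22 (SE 0.84), and 4 of the exposed livers lay above the diet range and 1, replicate 5, below it. nfe2l1b was at 14.5 to 18.3 CPM in 1% EtOH HFHC livers and 8.13 to 11.8 in 0% EtOH HFHC livers (log2 difference 0.72), gyg1a at 32.7 to 48.98 CPM in 1% EtOH HFHC livers and 57.8 to 71.1 in 0% EtOH HFHC livers (log2 difference -0.69), and atf4b at 95.5 to 115 CPM in 1% EtOH HFHC livers and 52.8 to 77.3 in 0% EtOH HFHC livers (log2 difference 0.52). These 3 genes (nfe2l1b, gyg1a and atf4b) did not overlap between the HFHC groups. Their diet-alone values lay on the other side of the 0% EtOH ND livers for hamp (-3.21), nfe2l1b (-0.66), atf4b (-0.15) and gyg1a (0.43), beside 1.01, 0.06, 0.38 and -0.26 for the double exposure in the same fit. These were picked after their values were seen. Of the 11, hspa5, vcp, rbp4, mhc1uba and fth1a did the same, whereas slc40a1 (2.545 and 1.376) and tfa (1.091 and 0.294) lay on 1 side for both. The study's choice of genes favours opposite sides, so this too is description with no test.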

How the data were processed

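Poly(A)-selected single-end RNA-Seq was done on single livers. Per the labels and the methods, the authors checked reads with FastQC, aligned them to GRCz10 with STAR 2.3 and counted exon reads with HTSeq 0.6.0 on Ensembl gene models, and strand is not stated. The deposited whole-number counts of 25680 genes were used as the authors gave them, joined between tables on gene identifier. Columns of the authors' own fold changes and p-values, and 40 columns of their size-factor-normalized values, were not used.

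Genes were kept by edgeR's filterByExpr (12381 in 10 livers, 13711 in 20), scaled by TMM and tested two-sided with edgeR 4.0.16's quasi-likelihood test in R 4.3.3, with Benjamini-Hochberg adjustment over all genes tested and a threshold of 0.05. DESeq2 1.42.0 and limma-voom (limma 3.58.1), RLE scaling, other count filters, a replicate block, other sets of livers and each liver left out were alternatives. Each fit on other livers filtered genes anew, so its list medians can cover other members. p-values measure the spread between single fish. The labels name no tank or clutch for any liver, so livers of a group may have shared them, which these p-values do not account for.

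Named genes were, per direction, the 12 of smallest p that passed, did not overlap, had a mean of at least 1 CPM in the higher group and bore no clone or date symbol; then up to 4 passing members per list, and the 11 genes displayed by the study. Of 1095 list symbols 1043 were matched. Members and lists were chosen with earlier results of these data known. Replicates of a group differed by more than sampling noise (lowest chi-square per degree of freedom 17.3). A principal component analysis used log2 CPM with a prior count of 2. Sums over marker lists are described without a test.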

Additional observations from a re-analysis of the deposited data

Results flagged for a closer look

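Of the values examined, 7 stood farther from their group of 5 livers than Dixon's test allows at the 95% level (gap over range above 0.71, in 104 groups of values examined, where chance alone gives about 1 in 20). The ratio was taken on log2 values after adding 1, whereas the levels printed here are not logged. In 1% EtOH HFHC livers, atf4b was highest in replicate 4, at 117 CPM with the nearest liver at 98.3 (ratio 0.836), and slc40a1 in replicate 5, at 232 CPM with the nearest at 50.1 (0.747). The summed macrophage and neutrophil markers were highest in replicate 4, at 382 CPM with the nearest at 329 (0.725), and the total count was lowest in replicate 3, at 9757000 with the nearest at 11510000 (0.899). In 0% EtOH ND livers, nceh1a was highest in replicate 1, at 12.8 CPM with the nearest at 7.75 (0.746), and calr in replicate 5, at 33.5 CPM with the nearest at 26.4 (0.716). The summed adipocyte markers were lowest in replicate 3 of that group, at 560.2 CPM with the nearest at 1186 (0.715). In 0% EtOH ND livers lpl reached 1540 CPM and every other gene of that list at most 60.5 CPM. In 1% EtOH HFHC livers si:ch211-212k18.7 of the macrophage and neutrophil list reached 303 CPM, and every other member at most 31.3 CPM. Each of these sums thus rests mostly on 1 gene.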

How the results depend on the processing

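The 69 genes between 1% EtOH HFHC and 0% EtOH ND livers became 1326 by DESeq2, 43 by limma-voom, 1357 with all 30 adult livers in the fit, 1010 with 20, and 0 without 0% EtOH ND replicates 1, 2 and 3, a setting added after seeing the data; with single livers left out they were 0 to 430. The split between higher and lower genes was 17 and 52, and 273 and 1053 by DESeq2. Against 0% EtOH HFHC livers the 0 genes became 23 by DESeq2, and 0 to 1 with single livers left out. Against 1% EtOH ND livers the 66 became 695 by DESeq2, 35 with at least 10 counts in every liver, 0 by limma-voom (1309 at an unadjusted p under 0.05), 125 with 30 livers, 15 with a robust fit and 839 without the 3 controls (the last 2 added after seeing the data), and 0 to 409 with single livers left out. The interaction's 0 became 2 by DESeq2 and stayed 0 with any liver left out. The cause of these shifts was not tested.

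No pairing of livers by replicate number was detected: deviations of same-numbered livers correlated at 0, -0.041, 0.073, 0.004 and 0.094, and only number 5 correlated best with its own. This check could miss a weaker pairing, since the controls differed widely in intestinal and pancreatic transcripts. With the replicate block the counts were 57 against 0% EtOH ND, 2 against 0% EtOH HFHC and 9 against 1% EtOH ND livers. The fits behind the last 2 counts left out every liver numbered 5 or 6. They therefore differ from the main fit in their livers as well as in the block.

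Of the 38 named genes, 27 passed at first, and all 27 kept their direction but none its call without the 3 controls (adjusted p from 0.091 to 0.355). All of the 27 but gcga had groups that did not overlap, so their direction was largely fixed in advance. Without the 3 controls nfe2l1b turned to -0.08 and fth1a to 0.95, and with single livers left out nfe2l1b lay between -0.09 and 0.13. Genes under about 1 CPM rest on few reads, which limits their folds.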

Other observations

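Matrix and fibroblast genes lay mostly below 0, and none passed the test in the 10 livers. In the fit of 20 livers 1 gene of the collagen, matrix and fibrosis list passed as higher and 5 as lower. The shares of all genes tested were 1.67% and 5.7%. Of 36 collagen, matrix and fibrosis genes 29 were tested, 19 were below 0, and the median log2 fold change was -0.40, and -0.39 without 0% EtOH ND replicates 1, 2 and 3. The type I collagen chains were col1a2, at 2.39, 2.73, 3.79, 3.05 and 5.204 CPM in 1% EtOH HFHC livers and 8.01, 12.2, 28.7, 9.46 and 8.31 CPM in 0% EtOH ND livers (-1.96, adjusted p = 0.0576, edgeR), col1a1b, at 5.47, 4.49, 7.58, 6.39 and 7.35 CPM in 1% EtOH HFHC livers and 16.02, 18.04, 29.2, 11.3 and 10.6 CPM in 0% EtOH ND livers (-1.45, adjusted p = 0.0576), and col1a1a (-1.81, adjusted p = 0.0832). None of the 3 chains overlapped between the groups. The list held 4 genes without overlap among the 29 tested, beside 3.6% of all genes tested. The perlecan gene hspg2, a basement membrane proteoglycan, lay the other way, at 29.3, 31.1, 17.1, 2.57 and 8.67 CPM in 1% EtOH HFHC livers and 5.34, 5.91, 4.01, 6.72 and 4.77 CPM in 0% EtOH ND livers (1.73, adjusted p = 0.147), with exposed replicate 4 below every control.

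Among alcohol metabolism genes, adh8b, an alcohol dehydrogenase, was at 206, 199, 202, 188 and 247 CPM in 1% EtOH HFHC livers and 498, 252, 388, 491 and 322 CPM in 0% EtOH ND livers without overlap (-0.90, adjusted p = 0.0861). In glycolysis, the liver pyruvate kinase pklr was at 469, 446, 500.3, 637 and 706 CPM in 1% EtOH HFHC livers and 4106, 873, 661, 1939 and 1087 CPM in 0% EtOH ND livers (-1.65, adjusted p = 0.127), whereas pcxa, the pyruvate carboxylase of gluconeogenesis, had a log2 fold change of 0.78 (adjusted p = 0.238). Interferon-stimulated isg15 was at 15.6, 9.94, 9.42, 20.3 and 26.4 CPM in 1% EtOH HFHC livers and 40.4, 72.5, 205, 43.3 and 42.9 CPM in 0% EtOH ND livers (-2.31, adjusted p = 0.0755), without overlap and highest in 0% EtOH ND replicate 3. The guanylate-binding gbp2 of the same list was higher in 1% EtOH HFHC livers, at 75.2, 66.2, 65.05, 61.6 and 86.2 CPM against 32.2, 34.4, 22.8, 54.1 and 46 CPM in 0% EtOH ND livers (0.90, adjusted p = 0.099). Apolipoprotein apoea, at 0.953 to 9.73 CPM in 1% EtOH HFHC livers and 2997, 1800, 8103, 0.798 and 7.54 CPM in 0% EtOH ND livers, and the carotene oxygenase bco1, at 0 to 1.62 CPM in 1% EtOH HFHC livers and 37.2, 66.01, 240.1, 0.912 and 0.443 CPM in 0% EtOH ND livers, were high only in the 3 controls with intestinal transcripts. These genes were chosen after their values were seen, and none passed the test.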
